A study of Mus musculus with 48 samples.

Results

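Fibroblasts and adipocyte progenitors of fat are sorted and named by a small set of surface and secreted proteins: Pi16, Dpp4, Cd34, Ly6a, Pdgfra, Pdgfrb, Fap, Thy1, Icam1 and Ngfr. The rows of these 10 genes were read by symbol from the deposited table of 47729 genes, where each was found. RNA had been sequenced from whole fat depots of male mice with both Cth alleles intact (Cth+/+) or both lost (Cth-/-). The product of Cth, cystathionine gamma-lyase, carries out the last step by which cysteine is formed from methionine, so a mouse without it depends on cysteine or cystine in the food. Mice ate either a cystine-free diet (CysF) or a control diet (CTRL) for 6 days. Visceral fat (EFAT), subcutaneous fat (SFAT) and brown fat (BAT) each gave 4 libraries of Cth-/- CysF, 4 of Cth-/- CTRL, 4 of Cth+/+ CysF and 4 of Cth+/+ CTRL mice, 48 in all. The labels used here give no age, strain or allele design, and do not say that a library is 1 mouse, so a p-value measures the spread between libraries of a group.

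Stromal cells of fat that give rise to adipocytes carry Pdgfra and lie between the adipocytes and in the outer wall of vessels. In mouse subcutaneous fat a less committed interstitial population is marked by Dpp4 and Pi16, and a population further along the adipocyte path by Icam1. Cd34, Ly6a (Sca-1) and Thy1 (CD90) are shared by most of these cells, whereas Pdgfrb also marks pericytes and Cd34 and Icam1 are also found on endothelium. Fap is a membrane protease of matrix-producing fibroblasts, and Ngfr, the p75 neurotrophin receptor, marks some perivascular stromal cells as well as Schwann cells. In whole tissue, fewer cells of a type and less RNA per cell cannot be told apart.

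Estimated reads per library, in mega-reads (M), ranged between 18.7 and 36.1 in EFAT, between 16.2 and 39.0 in SFAT, and between 22.1 and 46.0 in BAT. Cth itself read 0 to 0.219 counts per M reads of the library (CPM) in Cth-/- EFAT against 9.33 to 14.6 CPM in Cth+/+ EFAT, 0 to 0.130 CPM in Cth-/- SFAT against 3.88 to 12.4 CPM in Cth+/+ SFAT, and 0 to 0.0365 CPM in Cth-/- BAT against 0.298 to 1.56 CPM in Cth+/+ BAT. None of the 16 fibroblast, 10 endothelial, 10 mural and 8 Schwann cell markers listed for comparison was at 0 in a whole group. Marker lists of neighbouring tissues set 3 libraries apart: the B cell and lymph node list summed to 169 CPM in SFAT Cth-/- CTRL replicate 14, the skeletal muscle list to 1571 CPM in SFAT Cth-/- CysF replicate 20, and the epididymis list to 985 CPM in EFAT Cth-/- CysF replicate 20. In each depot 7 libraries, called set B here, held reads of the predicted gene Gm43512 above 0.1 CPM and the rest, set A, did not. What the split records is not given in the sources used here, and in EFAT only 1 of the 4 Cth-/- CysF libraries was of set A.

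Of the 10 genes, 6 had a promoter in the RefSeq table of GRCm38.p6, counted as 250 bases before to 50 after the start. The promoters of Pi16, Cd34 and Ngfr, which fell with the cystine-free diet in all 3 depots of Cth-/- mice, and of Icam1, which passed the test in none, are printed 5′ to 3′. Capitals mark matches on either strand to the TATA box letters TATAAA, the GC box letters GGGCGG, the TEAD motif letters CATTCC, the AP-1 motif letters TGANTCA or the CCAAT box, and overlapping matches were joined.
Pi16, chr17:29318632-29318931, plus strand: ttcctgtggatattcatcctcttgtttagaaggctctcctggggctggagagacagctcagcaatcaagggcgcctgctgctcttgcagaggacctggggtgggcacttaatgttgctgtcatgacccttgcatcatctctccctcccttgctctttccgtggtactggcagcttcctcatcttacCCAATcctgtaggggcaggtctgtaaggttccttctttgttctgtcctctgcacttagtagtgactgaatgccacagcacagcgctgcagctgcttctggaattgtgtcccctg
Cd34, chr1:194938571-194938870, plus strand: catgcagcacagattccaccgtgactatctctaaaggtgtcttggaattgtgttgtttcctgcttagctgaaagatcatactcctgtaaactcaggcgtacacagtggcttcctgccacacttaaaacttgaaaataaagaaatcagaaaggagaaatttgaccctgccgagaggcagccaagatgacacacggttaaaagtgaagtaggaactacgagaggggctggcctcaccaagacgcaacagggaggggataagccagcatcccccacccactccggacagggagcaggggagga
Ngfr, chr11:95587649-95587948, minus strand: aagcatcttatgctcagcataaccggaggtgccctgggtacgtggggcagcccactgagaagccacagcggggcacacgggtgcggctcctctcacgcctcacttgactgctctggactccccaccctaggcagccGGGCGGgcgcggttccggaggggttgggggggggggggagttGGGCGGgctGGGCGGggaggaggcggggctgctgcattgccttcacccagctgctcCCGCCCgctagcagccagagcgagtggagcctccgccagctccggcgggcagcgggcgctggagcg
Icam1, chr9:21015690-21015989, plus strand: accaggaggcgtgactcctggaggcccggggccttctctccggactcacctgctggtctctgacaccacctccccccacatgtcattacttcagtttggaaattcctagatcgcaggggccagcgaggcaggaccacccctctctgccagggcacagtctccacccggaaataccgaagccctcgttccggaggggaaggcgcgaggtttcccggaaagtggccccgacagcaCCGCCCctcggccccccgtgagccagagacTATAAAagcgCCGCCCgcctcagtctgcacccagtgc

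The promoters of Pi16, Cd34 and Ngfr had none of these motifs in common, and Fap, which also fell in all 3 depots, had no promoter in the table. Ngfr held 4 GC boxes in a window of 71.7% G and C, Pi16 held 1 CCAAT box, and Cd34 held none of the 5. Icam1 held 2 GC boxes and 1 TATA box. Of the others in the table, Dpp4 had 1 TATA box and 1 TEAD motif and Pdgfra had none. Among 32851 promoters of the table, the TATA box letters stood in 13.6%, the GC box in 35.7%, the TEAD motif in 14.7%, the AP-1 motif in 7.81% and CCAAT in 37.4%. These matches describe letters in a window and not binding.

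In the GENCODE M21 annotation of GRCm38, all 10 are protein-coding genes. Dpp4 (chromosome 2, 62330073 to 62412231) and Fap (chromosome 2, 62500943 to 62574075), 2 related prolyl proteases, lie close together on the minus strand. Thy1 (44043384 to 44048579) and Icam1 (21015985 to 21028817) are both on the plus strand of chromosome 9. Pi16 is at 29317680 to 29330593 of chromosome 17, so its printed RefSeq window lies inside the gene as placed here. Cd34 is at 194938819 to 194961279 of chromosome 1 and Pdgfra at 75152292 to 75198215 of chromosome 5. Ly6a is at 74994877 to 74998031 of chromosome 15 and Ngfr at 95568818 to 95587735 of chromosome 11. Genes on the other strand overlap exons of Pi16, Dpp4, Cd34, Pdgfra and Icam1, and the strand setting of the counting is not given in the sources used here. Those beside Dpp4, Cd34 and Pdgfra held at most 12 reads in a library and at most 1.07% of the reads of their partner. Those beside Pi16 and Icam1 were not found by gene identifier among the deposited counts. Ly6a was the only member with estimated counts that were not whole, in 36 of 48 libraries. Some of its reads thus also matched other genes and were divided by estimate, so its values are less certain.

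Levels were first compared in Cth+/+ mice on the control diet, per kilobase of exon so that genes can be set side by side. Ly6a was the most abundant of the 10 in each depot, at 40.9 ± 8.20 CPM per kb in EFAT, 106 ± 19.7 in SFAT and 32.3 ± 6.53 in BAT (SD, n = 4 each). In EFAT it was followed by Cd34 at 16.5 ± 2.34 and Pdgfrb at 13.7 ± 1.17 CPM per kb, whose ranges overlapped, then by Pdgfra, Dpp4 and Thy1 between 6.61 and 5.50, each overlapping its neighbour, and by Pi16, Icam1, Fap and Ngfr, which were separated, down to 0.244 ± 0.0549 for Ngfr. In SFAT the adventitial marker Pi16 came after Cd34 with 22.4 ± 6.22 CPM per kb, overlapping the 24.2 ± 3.80 of Cd34, and Thy1, Dpp4 and Pdgfra overlapped in turn between 11.9 and 9.27. In BAT Pdgfrb came second at 11.4 ± 0.0989 CPM per kb and Cd34 after it at 5.57 ± 1.19. The lowest in BAT were Ngfr at 0.600 ± 0.109 and Dpp4 at 0.592 ± 0.249, whose ranges overlapped.

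**Figure D1:**
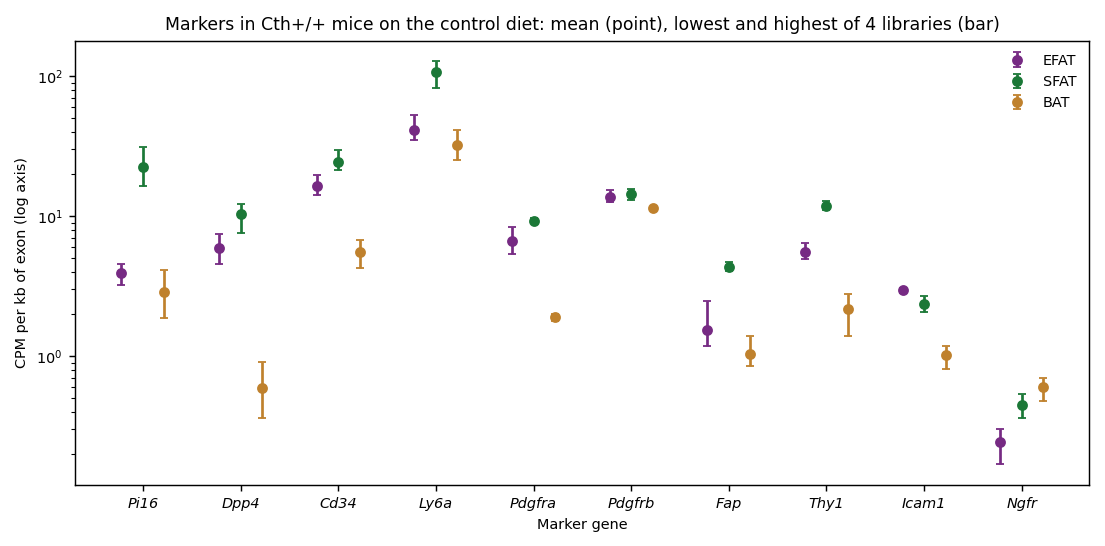
Level of the 10 markers in Cth+/+ mice on the control diet, in CPM per kb of exon on a log axis, by depot. Points are means of 4 libraries and bars run from the lowest to the highest. Ly6a is at the top in each depot (106 CPM per kb in SFAT), and Ngfr is at or near the bottom in all 3.

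White fat held more of most of these transcripts than brown fat. On one scale for all 48 libraries, 9 of the 10 were higher in SFAT than in BAT by edgeR's quasi-likelihood test with Benjamini-Hochberg adjustment, where 27.1% of all genes were higher. The widest gap was that of Dpp4 (log2 fold change 4.14 ± 0.36, SE, adjusted p = 1.4e-12), then Pi16 (2.98 ± 0.27), Thy1 (2.46 ± 0.32) and Pdgfra (2.29 ± 0.25). Pdgfrb differed by 0.34 ± 0.11 and Ngfr by -0.43 ± 0.40, which did not pass (adjusted p = 0.38). EFAT exceeded BAT for 7 of the 10 (33.1% of all genes were higher), led by Dpp4 at 3.35 ± 0.35, and 1 of the 10, Ngfr, was lower by a log2 fold change of -1.30 ± 0.40 (adjusted p = 0.0058; 26.9% of all genes were lower). Between the white depots, 4 of the 10 were lower in EFAT than in SFAT (5.66% of all genes were lower): Pi16 at -2.50 ± 0.26, Fap at -1.50 ± 0.19, Ly6a at -1.38 ± 0.22 and Thy1 at -1.11 ± 0.30. The EFAT over BAT calls of Pdgfrb (0.27 ± 0.11) and Fap (0.59 ± 0.20) rested on single libraries. Without EFAT Cth+/+ CTRL replicate 2 they were 0.21 (adjusted p = 0.136) and 0.28 (adjusted p = 0.193), and Pdgfrb also lost its call without EFAT replicate 1 or any 1 of BAT replicates 1 to 4 (adjusted p = 0.0564 to 0.0659). Pi16, at 0.48 ± 0.26 (adjusted p = 0.108), passed without BAT replicate 2 (0.71, adjusted p = 0.0266).

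The main comparison asked what 6 days without cystine did to these markers when Cth was missing. In Cth-/- mice on that diet 9 of the 10 fell in SFAT, where 13.6% of all genes tested were lower, 7 of the 10 fell in BAT (10.2% of all genes lower) and 4 of the 10 fell in EFAT (14.3% lower). None rose in any depot, where 14.5% of all genes in EFAT, 11.8% in SFAT and 7.81% in BAT did. The median log2 fold change of the 10 was -0.22 in EFAT, -1.26 in SFAT and -0.95 in BAT, against 0.07, 0.03 and -0.01 over all genes. Pi16, Cd34, Fap and Ngfr fell in all 3 depots; Dpp4, Thy1 and Pdgfra in SFAT and BAT, and Ly6a and Pdgfrb in SFAT. Icam1 passed in none.

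**Figure D2:**
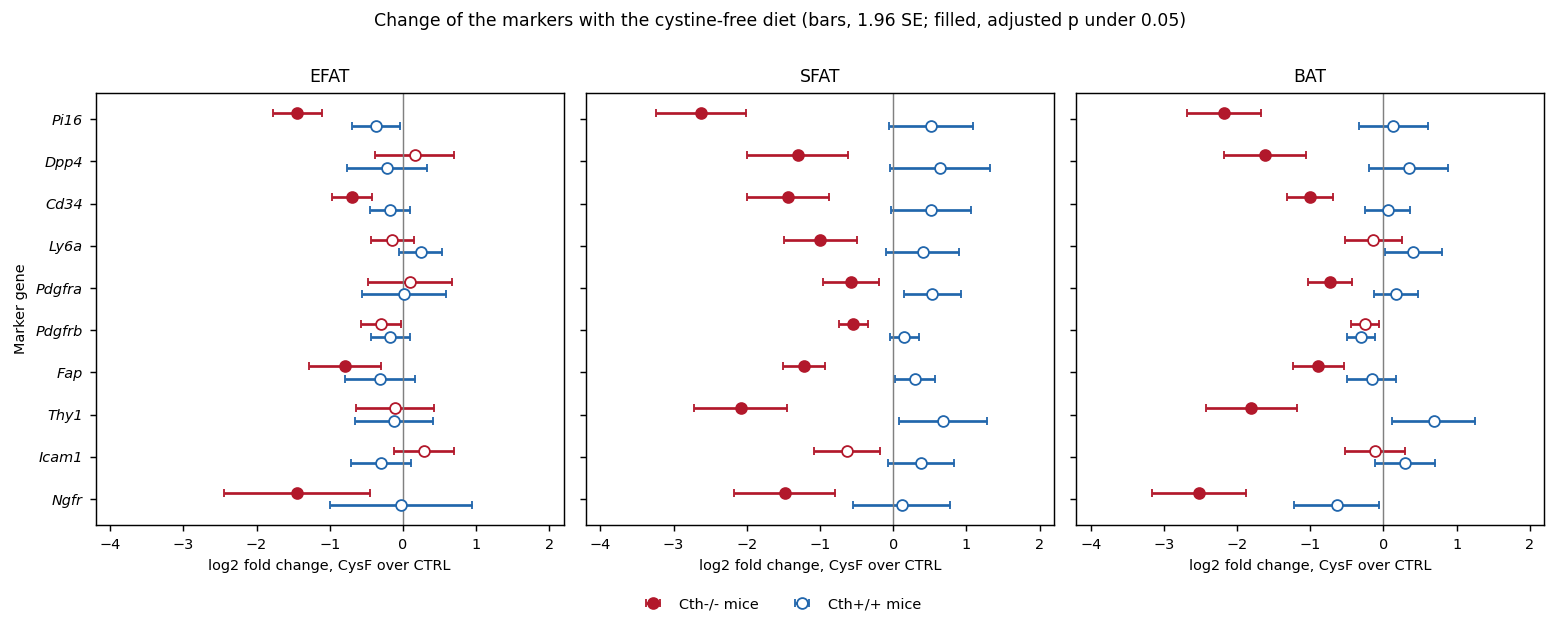
Log2 fold change of each marker, CysF over CTRL diet, in EFAT, SFAT and BAT, for Cth-/- mice (red) and Cth+/+ mice (blue). Points are edgeR estimates, bars are 1.96 SE, and filled points passed an adjusted p of 0.05. Filled red points lie left of 0 for 4 markers in EFAT, 9 in SFAT and 7 in BAT, and no blue point is filled.

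Pi16, a secreted peptidase inhibitor-like protein of adventitial fibroblasts, was lower in Cth-/- CysF libraries in every depot. In SFAT it read 42.1, 33.4, 53.5 and 32.8 CPM in Cth-/- CysF libraries, against 225, 308, 162 and 306 CPM in Cth-/- CTRL libraries. In BAT it read 3.65, 2.85, 1.93 and 2.25 CPM in Cth-/- CysF libraries, against 13.4, 13.8, 10.8 and 11.1 CPM in Cth-/- CTRL libraries. In EFAT the Cth-/- CysF libraries held 14.4, 8.51, 11.5 and 11.9 CPM and the Cth-/- CTRL libraries 38.0, 34.2, 26.1 and 27.6 CPM. The groups did not overlap in any depot, and the mean on the cystine-free diet was 0.162 of that on the control diet in SFAT, 0.217 in BAT and 0.367 in EFAT. The fitted EFAT change was -1.44 ± 0.17 (adjusted p = 7.5e-05). It was -1.21 with set A alone, where it lost the call (adjusted p = 0.14), with 1 Cth-/- CysF library left.

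**Figure D3:**
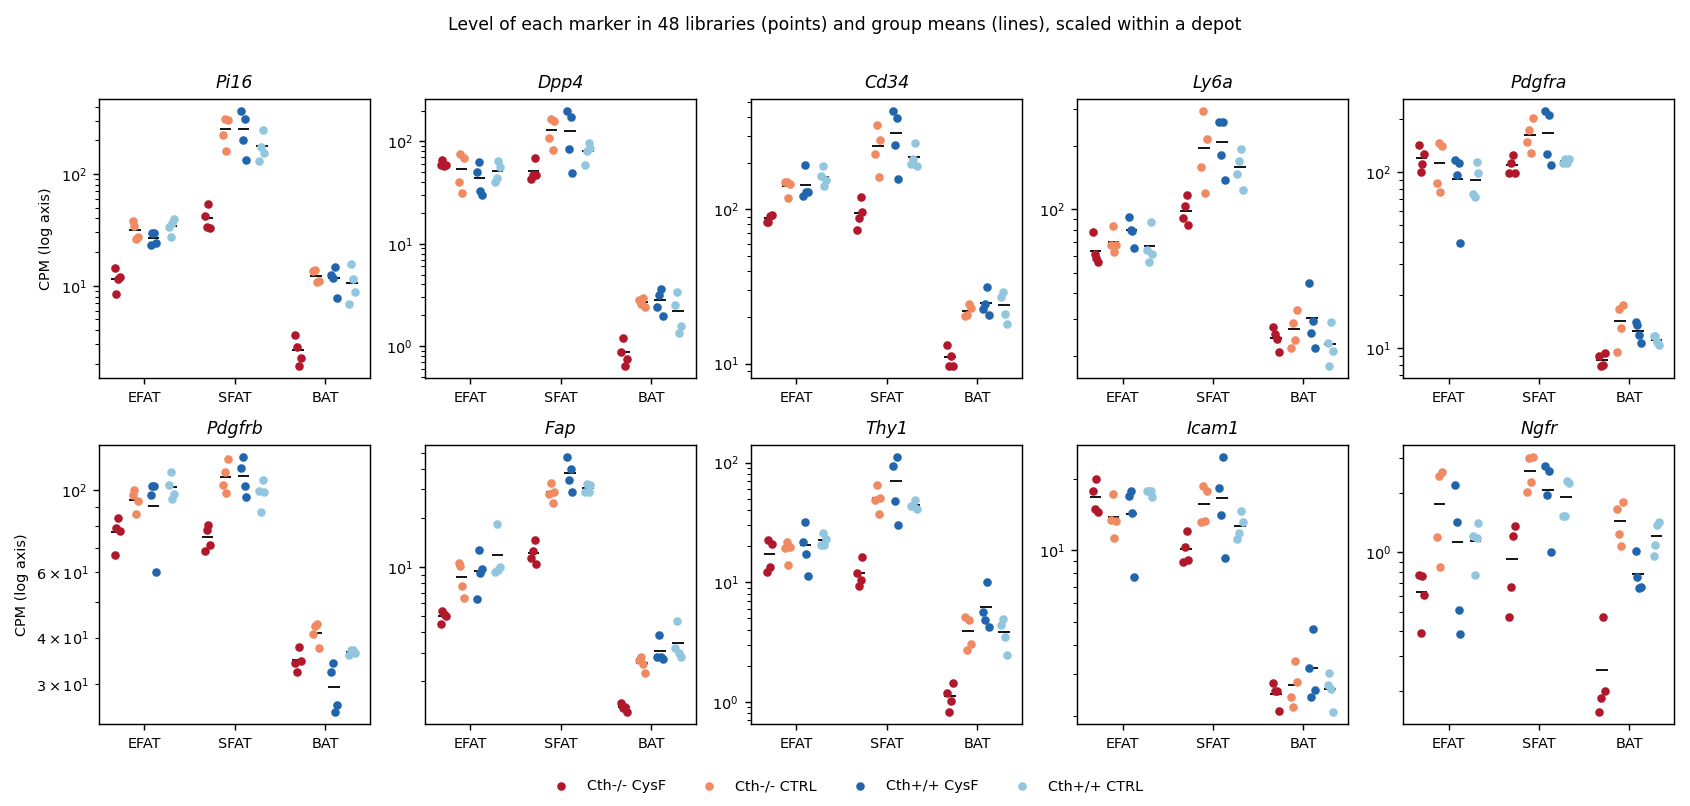
CPM of each marker in the 48 libraries on log axes, scaled within a depot, in EFAT, SFAT and BAT. Points are libraries and lines are group means of 4. The Cth-/- CysF points (dark red) of Pi16 and Cd34 lie below all Cth-/- CTRL points (orange) in each depot, and those of Icam1 overlap them in EFAT and BAT.

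Dpp4, the membrane dipeptidyl peptidase that names the interstitial progenitor, fell in SFAT and BAT and did not pass in EFAT. SFAT libraries of Cth-/- CysF mice held 43.1, 46.9, 69.4 and 47.2 CPM, and those of Cth-/- CTRL mice held 107, 165, 82.6 and 157 CPM (log2 fold change -1.31 ± 0.35, adjusted p = 0.013, and 0.089 with the B cell score as a covariate). BAT libraries of Cth-/- CysF mice held 0.882, 1.19, 0.643 and 0.750 CPM, and those of Cth-/- CTRL mice held 2.81, 2.59, 2.98 and 2.42 CPM (-1.62 ± 0.29, adjusted p = 0.0017). In both depots every CysF library lay below every CTRL library. EFAT showed 58.3, 65.3, 58.0 and 58.4 CPM in Cth-/- CysF libraries, within the 31.0 to 75.0 CPM of the Cth-/- CTRL libraries (0.16 ± 0.28, adjusted p = 0.68). The difference between these responses was tested in one fit of all 48 libraries: the log2 fold change of Dpp4 in EFAT exceeded that in BAT by 1.71 ± 0.50 (adjusted p = 0.017) and that in SFAT by 1.42 ± 0.43 (adjusted p = 0.047). The second lost its call, at 1.23 to 1.44 with an adjusted p of 0.0599 to 0.153, without any 1 of Cth-/- CysF replicates 16, 17 and 20 or Cth-/- CTRL replicates 13 and 15 of SFAT, or Cth-/- CysF replicates 17, 18 and 20 or Cth-/- CTRL replicates 12 and 14 of EFAT.

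Thy1, a GPI-anchored glycoprotein of fibroblasts that T cells and neurons also carry, fell in the same depots as Dpp4. Cth-/- CysF libraries held 11.9, 9.23, 10.5 and 16.4 CPM in SFAT against 48.5, 65.7, 37.4 and 50.8 CPM in Cth-/- CTRL libraries (-2.08 ± 0.32, adjusted p = 4.0e-04). In BAT they held 1.20, 0.827, 1.02 and 1.45 CPM against 5.13, 2.73, 4.84 and 3.03 CPM (-1.80 ± 0.32, adjusted p = 0.0015). In EFAT, Cth-/- CysF libraries at 12.2, 22.7, 13.3 and 21.1 CPM overlapped Cth-/- CTRL libraries at 19.4, 21.7, 13.9 and 19.8 CPM (-0.11 ± 0.27, adjusted p = 0.77). The EFAT change exceeded that of BAT by 1.62 ± 0.46 (adjusted p = 0.014) and that of SFAT by 1.92 ± 0.42 (adjusted p = 0.0076). Dpp4 and Thy1 made up the 2 of the 10 whose change was higher in EFAT than in BAT (7.29% of all genes) and the 2 of the 10 whose change was higher in EFAT than in SFAT (1.04%) in this edgeR fit, and DESeq2 called 4 in the second. Pi16, at 1.14 ± 0.36 in EFAT minus SFAT (adjusted p = 0.057), passed without EFAT Cth-/- CysF replicate 17, SFAT Cth-/- CysF replicate 18 or SFAT Cth-/- CTRL replicate 14 (adjusted p = 0.031 to 0.0483). SFAT minus BAT gave 0 of 10 by edgeR (2.16% of all genes), 1 of 10 at an unadjusted p under 0.05 (14.5% of all genes at that level) and 0 by DESeq2. T cell markers summed to 6.07 to 10.4 CPM in Cth-/- CysF SFAT and 8.76 to 32.3 CPM in Cth-/- CTRL SFAT, where 3 of the 9 T cell markers tested were lower, and their part in the Thy1 result was not tested.

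Cd34, a sialomucin of stromal progenitors and endothelium, fell in all 3 depots. In EFAT it read 83.2, 83.6, 91.3 and 92.8 CPM in Cth-/- CysF libraries against 152, 152, 119 and 146 CPM in Cth-/- CTRL libraries (-0.70 ± 0.14, adjusted p = 0.0028). It was -0.78 with set A alone, where the call was lost (adjusted p = 0.309) with 1 Cth-/- CysF library left. SFAT Cth-/- CysF libraries read 73.2, 88.0, 121 and 95.7 CPM against 228, 354, 163 and 281 CPM in Cth-/- CTRL libraries (-1.44 ± 0.29, adjusted p = 0.0022). BAT Cth-/- CysF libraries read 13.2, 9.68, 11.3 and 9.70 CPM against 20.4, 20.6, 24.4 and 22.8 CPM in Cth-/- CTRL libraries (-1.005 ± 0.16, adjusted p = 7.5e-04). The groups were separate in each depot. Endothelial cells carry Cd34 too, and their part in the Cd34 result was not tested. None of the 10 endothelial markers was called lower. Their summed level ran from 1213 to 1453 CPM in Cth-/- CysF EFAT against 1047 to 1215 CPM in Cth-/- CTRL EFAT, from 1031 to 1217 against 926 to 1148 CPM in SFAT, and from 578 to 611 against 497 to 610 CPM in BAT.

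Ngfr was the least abundant of the 10 in white fat. It read 0.157, 0.184, 0.474 and 0.200 CPM in BAT of Cth-/- CysF mice against 1.66, 1.24, 1.08 and 1.80 CPM in BAT of Cth-/- CTRL mice, a mean ratio of 0.176 (-2.52 ± 0.33, adjusted p = 1.5e-04). In SFAT it read 0.475, 0.670, 1.21 and 1.36 CPM in Cth-/- CysF libraries against 2.03, 2.99, 2.26 and 3.02 CPM in Cth-/- CTRL libraries (-1.48 ± 0.35, adjusted p = 0.0063, and 0.055 with the B cell score as a covariate). The 4 CysF libraries of each of these depots were below all 4 CTRL libraries. In EFAT, 0.772, 0.394, 0.763 and 0.608 CPM in Cth-/- CysF libraries stood against 1.19, 2.44, 0.848 and 2.54 CPM in Cth-/- CTRL libraries (-1.45 ± 0.51, adjusted p = 0.044), a call that 10 of 17 other settings ended. Among these were the fits without any 1 of Cth-/- CysF replicates 17, 18 and 20 or Cth-/- CTRL replicates 12, 13 and 15, with an adjusted p of 0.0571 to 0.114. Schwann cells carry Ngfr as well. The 8 listed Schwann markers summed to 135 to 176 CPM in Cth-/- CysF EFAT against 254 to 418 CPM in Cth-/- CTRL EFAT. There 2 of 8 were lower (Pmp22, at -1.34, and Mbp, at -0.60), against 14.3% of all genes. In SFAT they summed to 409 to 433 against 476 to 632 CPM, with 2 of 8 lower (Gfra3 and Pmp22), against 13.6% of all genes. In BAT they summed to 109 to 130 against 107 to 193 CPM. EdgeR called 0 of 8 in BAT, with 2 at an unadjusted p under 0.05 (32% of all genes at that level). The defining Schwann gene Sox10 averaged 0.446 ± 0.103 CPM in Cth-/- CysF EFAT and 0.416 ± 0.282 CPM in Cth-/- CTRL EFAT, 5.45 ± 2.02 and 4.25 ± 0.816 CPM in SFAT, and 0.826 ± 0.496 and 1.27 ± 0.228 CPM in BAT (SD, n = 4 each). Sox10 was thus a small part of each sum, and the part of Schwann cells in the Ngfr result was not tested.

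Fap, the collagen-peptide protease related to Dpp4, was lower in Cth-/- CysF libraries in every depot without overlap. Its means were 5.02 ± 0.386 CPM in Cth-/- CysF EFAT and 8.71 ± 2.00 CPM in Cth-/- CTRL EFAT, 12.3 ± 1.84 and 28.7 ± 3.35 CPM in SFAT, and 1.38 ± 0.0695 and 2.58 ± 0.251 CPM in BAT (SD, n = 4 each). The log2 changes were -0.80 ± 0.25 (adjusted p = 0.028), -1.22 ± 0.15 (5.2e-05) and -0.89 ± 0.18 (0.0036). The EFAT call ended under 8 of 17 other settings, among them leaving out any 1 of Cth-/- CysF replicates 17 and 20 or Cth-/- CTRL replicates 12 and 13 (adjusted p = 0.0503 to 0.0889), and the BAT call ended with the skeletal muscle score as a covariate (adjusted p = 0.13).

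The growth factor receptors had smaller estimates in SFAT than Pi16, Thy1 or Fap. Pdgfra, the receptor found on nearly all of these cells, averaged 109 ± 12.9 CPM in Cth-/- CysF SFAT and 163 ± 31.8 CPM in Cth-/- CTRL SFAT (-0.58 ± 0.20, adjusted p = 0.042), and 8.57 ± 0.727 and 14.2 ± 3.68 CPM in BAT (-0.73 ± 0.15, adjusted p = 0.0048; 0.103 with the skeletal muscle score as a covariate). In EFAT its 99.4 to 142 CPM in Cth-/- CysF libraries lay inside the 77.2 to 146 CPM of Cth-/- CTRL libraries (0.09 ± 0.29). The SFAT call was lost in 8 of 17 other settings, with an adjusted p up to 0.186. Without any 1 of Cth-/- CysF replicates 16, 17 and 20 or Cth-/- CTRL replicates 12, 13 and 15 the change was -0.46 to -0.62 (adjusted p = 0.0558 to 0.128). Pdgfrb, the receptor that pericytes share, fell in SFAT to 68.7 to 80.6 CPM in Cth-/- CysF libraries against 98.4 to 121 CPM in Cth-/- CTRL libraries (-0.54 ± 0.10, adjusted p = 0.0013). Its estimates of -0.30 ± 0.14 in EFAT and -0.25 ± 0.10 in BAT did not pass (adjusted p = 0.121 and 0.0897). Of the markers of mural cells, which carry Pdgfrb, 4 of 10 were higher and 3 lower in EFAT, 1 higher and 1 lower in SFAT, and 1 lower in BAT.

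Ly6a and Icam1 completed the set. Ly6a, a GPI-anchored protein of mouse progenitors, read 90.6, 104, 117 and 83.9 CPM in Cth-/- CysF SFAT against 159, 292, 120 and 216 CPM in Cth-/- CTRL SFAT (-0.99 ± 0.25, adjusted p = 0.0099), with a small gap between the groups. Its estimates were -0.15 ± 0.15 in EFAT and -0.14 ± 0.20 in BAT, with overlapping groups. Icam1, the adhesion receptor for leukocyte integrins, gave 0 calls in the 3 depots by edgeR, 1 at an unadjusted p under 0.05 (SFAT, -0.63 ± 0.23, adjusted p = 0.054), and 1 by DESeq2, also in SFAT (adjusted p = 0.0328). Without Cth-/- CysF replicate 18 or Cth-/- CTRL replicate 14 it passed there (adjusted p = 0.0488 and 0.0493). There its Cth-/- CysF libraries, at 8.93 to 12.0 CPM, lay below the Cth-/- CTRL libraries, at 13.1 to 18.6 CPM. In EFAT it read 14.5 to 19.9 CPM in Cth-/- CysF libraries and 11.3 to 17.3 CPM in Cth-/- CTRL libraries (0.28 ± 0.21).

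Relative to one another the markers did not keep their proportions. Within a library the reads of each were set against those of Pdgfra, which needs no scaling between libraries. The log2 ratio of Pi16 to Pdgfra averaged -3.38 in Cth-/- CysF EFAT and -1.80 in Cth-/- CTRL EFAT, -1.45 and 0.59 in SFAT, and -1.72 and -0.18 in BAT, with no overlap in any depot. The ratio of Ngfr to Pdgfra was also separate in all 3 depots, with differences of -1.50 in EFAT, -1.01 in SFAT and -1.94 in BAT. In SFAT its groups all but touched. The highest Cth-/- CysF ratio of Ngfr there was -6.187 and the lowest Cth-/- CTRL ratio was -6.185. Thy1 to Pdgfra was separate in SFAT and BAT, Cd34 to Pdgfra in EFAT and SFAT, and Dpp4, Fap and Ly6a to Pdgfra in SFAT alone. The groups of Ly6a also all but touched in SFAT, with a highest Cth-/- CysF ratio of -0.101 and a lowest Cth-/- CTRL ratio of -0.0963. The ratio of Icam1 to Pdgfra overlapped in all 3 depots, as did that of Pdgfrb. These ratios carry the same reads as the fold changes and are given as a description. The share of all genes whose groups were separate, in ratio or in CPM, is not given here.

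**Figure D4:**
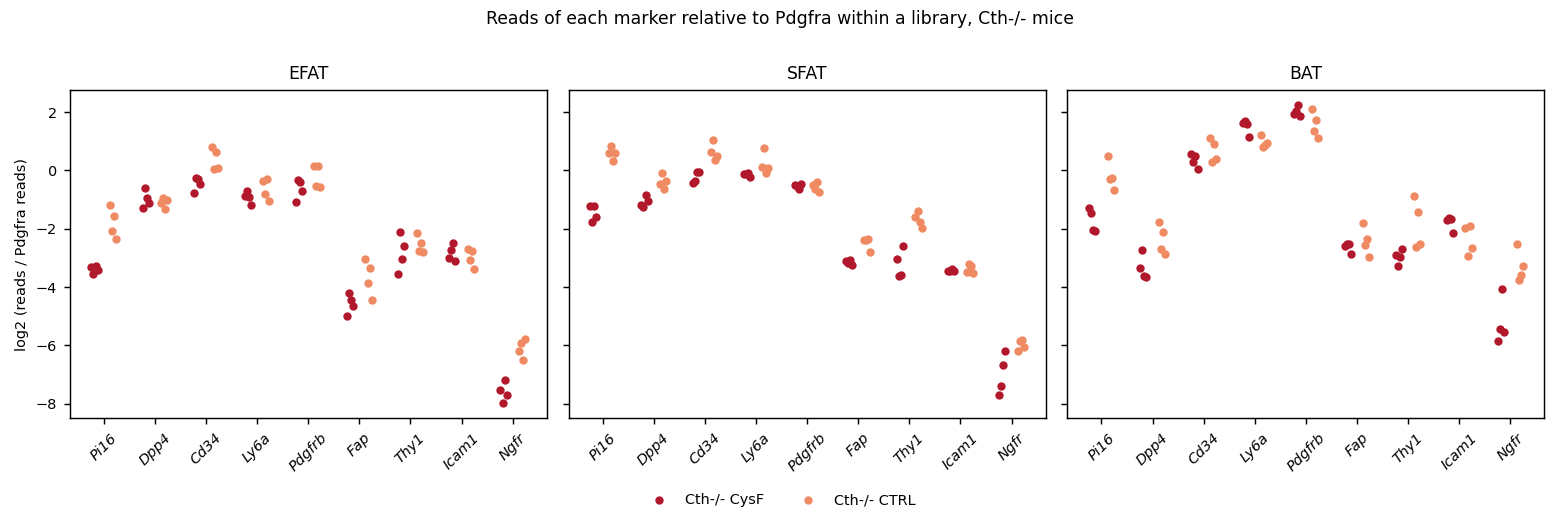
Log2 ratio of each marker's reads to those of Pdgfra in the same library, for Cth-/- mice on the CysF diet (red) and the CTRL diet (orange), in EFAT, SFAT and BAT. Each point is a library. Pi16 and Ngfr are separate in every panel, Ngfr only barely in SFAT, and Icam1 overlaps in every panel.

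No such calls were made in mice with Cth. In Cth+/+ mice on the cystine-free diet edgeR called 0 of the 10 in EFAT, SFAT and BAT, where 0%, 0.0664% and 0.0826% of all genes were called. At an unadjusted p under 0.05 there was 1 of 10 in EFAT (3.93% of all genes at that level), 2 in SFAT (14%) and 3 in BAT (9.8%), and DESeq2 called 0 in each. Though not called, Pdgfrb in BAT did not overlap between the diets, with a CysF mean 0.805 of the CTRL mean. Pi16 averaged 26.5 ± 3.38 CPM in Cth+/+ CysF EFAT and 34.2 ± 5.10 CPM in Cth+/+ CTRL EFAT, 252 ± 104 and 176 ± 50.03 CPM in SFAT, and 11.7 ± 2.98 and 10.7 ± 3.74 CPM in BAT (SD, n = 4 each). In SFAT all 10 estimates were above 0, between 0.12 and 0.68, while Cth+/+ CysF libraries varied widely: Dpp4 read 196, 83.9, 173 and 48.9 CPM in them. The test of the diet effect in Cth-/- minus that in Cth+/+ mice passed, downwards, for all 10 in SFAT (12.4% of all genes), for 6 of the 10 in BAT (4.32%) and for 1 of the 10, Pi16, in EFAT (5.35%). For Pi16 this difference was -3.14 ± 0.43 in SFAT (adjusted p = 2.7e-04), -2.31 ± 0.35 in BAT (adjusted p = 0.0017) and -1.07 ± 0.24 in EFAT (adjusted p = 0.016). With the B cell score as a covariate 6 of the 10 were called in SFAT, where Dpp4 (adjusted p = 0.070), Pdgfra (0.0592), Icam1 (0.223) and Ngfr (0.139) lost their calls. With the skeletal muscle score 2 were called in BAT, where Dpp4, Pdgfra, Cd34 and Ngfr lost theirs (adjusted p = 0.0577 to 0.128). The EFAT value of Pi16 was -0.75 with the library set as a term (adjusted p = 0.317). Without EFAT Cth-/- CysF replicate 16, Ly6a also passed (-0.60, adjusted p = 0.0495). In SFAT Icam1 (-1.01 ± 0.32) and Ngfr (-1.60 ± 0.49) lost their calls, with an adjusted p of 0.0525 to 0.0723, without any 1 of Cth-/- CysF replicates 16 and 17, Cth-/- CTRL replicates 13 and 15, Cth+/+ CysF replicates 7 and 10 or Cth+/+ CTRL replicates 1 and 2, and Icam1 also without Cth-/- CysF replicate 20 or Cth+/+ CTRL replicate 4. In BAT Pdgfra lost it without Cth-/- CysF replicate 17 or 18 or Cth+/+ CTRL replicate 3 or 4 (adjusted p = 0.052 to 0.0568) and Ngfr without Cth-/- CysF replicate 17 (adjusted p = 0.0535). Fap passed in BAT without Cth+/+ CTRL replicate 2 (-0.91, adjusted p = 0.0261).

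Loss of Cth was also compared by itself, on the control diet. Between Cth-/- CTRL and Cth+/+ CTRL mice edgeR called 0 of the 10 in EFAT (0.0464% of all genes called), SFAT (0.103%) and BAT (2.1%), with 0, 1 and 2 at an unadjusted p under 0.05 (6.2%, 11% and 18.3% of all genes at that level) and 0 by DESeq2 in each depot. For Pi16 the intervals of the log2 difference (1.96 SE either way) ran from -0.45 to 0.20 in EFAT, -0.07 to 1.08 in SFAT and -0.27 to 0.68 in BAT. Though not called, the genotypes did not overlap for Pdgfrb and Fap in BAT and Pdgfra in SFAT. Their Cth-/- means were 1.12, 0.754 and 1.42 of the Cth+/+ means. Within set A alone 3 of the 10 were called in SFAT (Pi16, Dpp4 and Pdgfra) and 1 in BAT (Pdgfra), all higher in Cth-/- mice. The shares of all genes above are not those of the set A fits, which are not given here. Pdgfra was called in BAT without Cth-/- CTRL replicate 12 (0.50, adjusted p = 0.048). On the cystine-free diet, in contrast, Cth-/- mice were lower than Cth+/+ mice for 3 of the 10 in EFAT (19.6% of all genes lower), all 10 in SFAT (19.4%) and 7 of the 10 in BAT (17.1%). The 3 in EFAT were Pi16 (-1.20 ± 0.17), Fap (-0.93 ± 0.25) and Cd34 (-0.72 ± 0.14). In SFAT the log2 changes ran from -0.55 ± 0.10 for Pdgfrb to -2.64 ± 0.31 for Pi16, with Thy1 at -2.56 ± 0.33. This comparison shares its Cth-/- CysF libraries with the diet comparison and is no second experiment. With set A alone it gave 6 calls in SFAT. In EFAT that set held only 1 Cth-/- CysF library, too few for a count of calls. With the skeletal muscle score as a covariate 3 were called in BAT, where Dpp4 (adjusted p = 0.0558), Pdgfra (0.300), Fap (0.0818) and Ngfr (0.0508) lost their calls. With the B cell score 6 were called in SFAT, where Dpp4 (0.0663), Pdgfra (0.095), Icam1 (0.170) and Ngfr (0.083) lost theirs, and with the epididymis score Fap lost its EFAT call (0.115) and Ly6a gained one (0.046). The SFAT calls of Pdgfra (-0.61 ± 0.20) and Icam1 (-0.71 ± 0.23) were lost without any 1 of Cth-/- CysF replicates 16 and 20 or Cth+/+ CysF replicates 7 and 10 (adjusted p = 0.0585 to 0.0992), and that of Ngfr without Cth-/- CysF replicate 16 or 17 or Cth+/+ CysF replicate 7 (0.0526 to 0.0533). In the other direction, Pdgfrb passed in EFAT without Cth+/+ CysF replicate 11 (-0.40, adjusted p = 0.00472), Ly6a without Cth-/- CysF replicate 16 (-0.55, adjusted p = 0.00972), and Pdgfrb in BAT, upwards, without Cth+/+ CysF replicate 8 (0.31, adjusted p = 0.0282).

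Other genes that mark the interstitial progenitor were followed in Cth-/- mice. With the cystine-free diet 9 of 18 tested were lower and 1 higher in EFAT, 14 of 18 lower in SFAT and 11 of 15 lower in BAT. Cd248 (endosialin, a fibroblast surface protein) averaged 21.1 ± 7.85 CPM in Cth-/- CysF EFAT and 71.4 ± 10.0 CPM in Cth-/- CTRL EFAT, 30.2 ± 10.7 and 155.6 ± 45.4 CPM in SFAT, and 2.22 ± 0.666 and 9.13 ± 3.73 CPM in BAT. Fbn1, the microfibril protein fibrillin, changed by -2.46 ± 0.32 in EFAT and -2.80 ± 0.28 in SFAT, and Sema3c, a secreted semaphorin, by -2.24 ± 0.33 in BAT. The exception that rose was Ebf2, a transcription factor of brown and beige precursors, at 0.58 ± 0.15 in EFAT. The median over the list was -0.67 in EFAT, -1.25 in SFAT and -1.11 in BAT.

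The list of committed preadipocyte genes was divided. In EFAT 5 of 12 were lower and 1 higher, in SFAT 4 lower, and in BAT 4 lower and 1 higher. Col15a1, a basement membrane collagen, changed by -4.06 ± 0.35 in EFAT, -2.83 ± 0.32 in SFAT and -2.78 ± 0.18 in BAT. Cxcl14, a chemokine, was lower in SFAT (-1.63 ± 0.48) and higher in BAT (1.03 ± 0.20). Pparg, the adipocyte master regulator, did not pass in any of the 3, at -0.35 ± 0.18, 0.08 ± 0.18 and 0.14 ± 0.12. The genes of F3+ regulatory progenitors went in both directions, with 3 of 8 higher and 1 lower in EFAT, 3 higher and 2 lower in SFAT, and 2 higher and 2 lower in BAT. Igfbp3, a secreted binding protein of insulin-like growth factors, averaged 108 ± 16.0 CPM in Cth-/- CysF EFAT and 34.8 ± 8.11 CPM in Cth-/- CTRL EFAT, 207 ± 38.8 and 33.2 ± 7.53 CPM in SFAT, and 50.5 ± 4.08 and 12.6 ± 0.499 CPM in BAT, without overlap. Fmo2, a flavin monooxygenase, rose with it, by 1.30 ± 0.26, 1.36 ± 0.16 and 1.44 ± 0.13, whereas Clec11a fell in all 3 depots. Stromal transcripts of this list moved both ways in the same libraries.

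Matrix and secreted genes of most fibroblasts fell broadly, with 12 of 16 lower and 1 higher in EFAT, 14 lower in SFAT, and 12 lower and 1 higher in BAT, and a median of -1.58, -2.36 and -1.52. Col3a1 changed by -3.12 ± 0.18, -4.26 ± 0.32 and -3.12 ± 0.23. Dcn, the proteoglycan decorin, was among the exceptions: its change was 0.78 ± 0.18 in EFAT (adjusted p = 0.0065), -0.36 ± 0.25 in SFAT and -0.18 ± 0.16 in BAT. Loxl1, a crosslinking enzyme, was lower in EFAT and SFAT and higher in BAT (0.93 ± 0.13). These lists were drawn up with earlier results of the series known, so their counts are given beside the shares of all genes above and not as separate evidence.

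**Figure D5:**
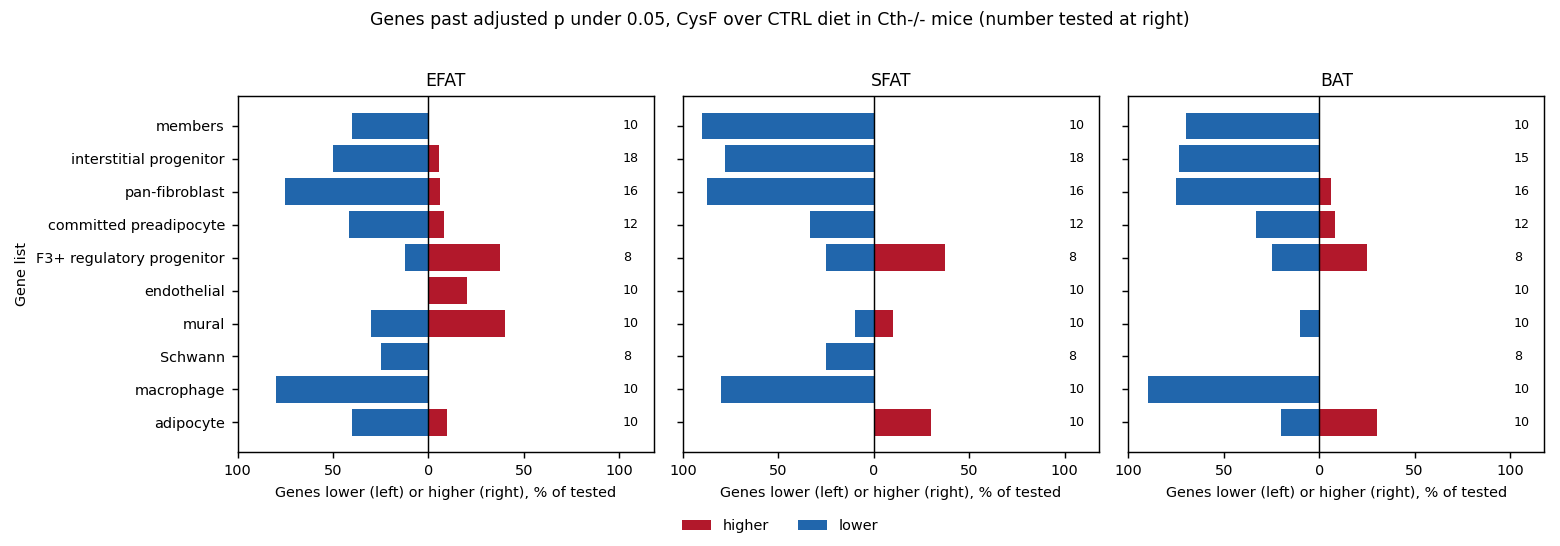
Share of each gene list that was lower (blue, left) or higher (red, right) on the CysF than on the CTRL diet in Cth-/- mice at an adjusted p under 0.05, in percent of the genes tested, whose number stands at the right of each bar. The 10 markers, the interstitial progenitor, pan-fibroblast and macrophage lists lie mostly to the left, the F3+ list has both, and the endothelial list has no lower gene.

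Partners of the markers were followed in the same comparison. Of the ligands of Pdgfra and Pdgfrb, Pdgfc was lower in all 3 depots, at -0.50 ± 0.14 in EFAT, -0.92 ± 0.15 in SFAT and -0.93 ± 0.20 in BAT. Pdgfd was lower in SFAT (-1.07 ± 0.12) and BAT (-0.96 ± 0.14), and in BAT Pdgfa was lower (-0.88 ± 0.25) and Pdgfb higher (0.75 ± 0.19). Itgam, the integrin chain of macrophages and neutrophils that binds Icam1, was lower in all 3 depots, at -1.05 ± 0.15, -1.66 ± 0.33 and -1.92 ± 0.41, and Itgb2 and Itgal were lower in SFAT and BAT.

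Relatives of the members did not all follow them. Among prolyl peptidases related to Dpp4 and Fap, EFAT had 1 higher (Dpp8, 0.31 ± 0.07) and 3 lower of 6, SFAT 1 higher (Dpp8) and 1 lower (Prcp) of 5, and BAT 1 higher (Dpp9) and 1 lower (Prcp) of 5. Of the Ly6 family, Ly6c1, an endothelial and myeloid surface protein, was higher in EFAT (0.84 ± 0.22) and BAT (0.69 ± 0.13), and Ly6c2 and Ly6e were lower in SFAT (-1.43 ± 0.42 and -1.005 ± 0.18).

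Markers of other cell types changed in the same libraries. Macrophage markers were lower for 8 of 10 in EFAT, 8 of 10 in SFAT and 9 of 10 in BAT, and summed to 643 to 906 CPM in Cth-/- CysF EFAT against 1171 to 1338 CPM in Cth-/- CTRL EFAT, 682 to 1165 against 1166 to 3494 CPM in SFAT, and 48.9 to 61.5 against 80.1 to 116 CPM in BAT. Endothelial markers were higher for 2 of 10 in EFAT, and 0 of 10 were called by edgeR in SFAT and in BAT, with 2 and 3 at an unadjusted p under 0.05 (37.5% and 32% of all genes at that level). In BAT 9 of 12 skeletal muscle genes were lower, summing to 3.09 to 145 CPM in Cth-/- CysF libraries and 95.9 to 904 CPM in Cth-/- CTRL libraries. With a score of the other tissue as a covariate, 3 of the 10 markers were called in EFAT (epididymis), 6 in SFAT (B cell) and 5 in BAT (skeletal muscle). In SFAT all 9 B cell genes were lower, and in EFAT the epididymis genes Crisp1 and Adam7 were higher. The part of macrophages in the marker results was not tested. Without the libraries set apart above, EFAT had 2 of 10 markers lower and SFAT 8 of 10, and BAT had no such library. In EFAT 2 were called without any 1 of Cth-/- CysF replicates 17 and 20 or Cth-/- CTRL replicates 12 and 13. With set A alone the numbers called were 10 in SFAT and 7 in BAT. In EFAT that set held only 1 Cth-/- CysF library, too few for a count of calls. For these other fits, the shares of all genes called are not given here.

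Within groups the 10 genes varied together most in SFAT. The correlation between 2 markers over libraries, after group means were subtracted from log2 CPM, had a median over the 45 pairs of 0.40 in EFAT, 0.77 in SFAT and 0.13 in BAT. The points share library depth, dissection and RNA, so these are descriptions. In SFAT, Cth+/+ CysF replicates 7 and 10, of set B, held 220.1 and 209.7 CPM of Pdgfra and replicates 8 and 11, of set A, held 126 and 110.0 CPM, and the other markers also were higher in 7 and 10 than in 8 and 11, except Pdgfrb.

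Over the 48 libraries, with each depot's mean removed, the genes most like each marker were ranked by Pearson's r of log2 CPM among 8319 or 8320 candidates, depending on the marker, a description that mixes all groups. Pi16 was closest to Bmp1 (r = 0.938), Col1a1 (0.935) and Col3a1 (0.929), a procollagen proteinase and 2 fibrillar collagens. Cd34 was closest to Loxl2 (0.962), Lum (0.943) and Fn1 (0.942), and Fap to Fbn1 (0.909), Col5a2 (0.908) and Col6a2 (0.907). Dpp4 had Sh3d19 (0.931), Timp2 and Dab2, Thy1 had Serpinf1 (0.919), Ptgfrn and Lgals3bp, and Pdgfra had Ltbp1 (0.875), Plxnb2 and Aebp1. The weakest likeness was found for Pdgfrb with Aplnr (0.762), Ngfr with Ptprs (0.780), Icam1 with Serping1 (0.784) and Ly6a with Prkcd (0.828).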

How the data were processed

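Poly(A) RNA of 48 whole-fat libraries was sequenced. Per the submitters' processing notes, FastQC, STAR, Picard and RSEM were used with build mm10, with versions not given in the sources used here. The authors deposited RSEM expected counts for 47729 genes, of which 14993 were at 0 in every library. They are estimates: 5.31% to 8.16% of them, by library, carried a decimal part, and all were rounded here.

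Each depot's 16 libraries were fitted with 4 group means by edgeR 4.0.16 (R 4.3.3): TMM scaling, genes kept at a minimum count of 10 and a minimum total of 15, the quasi-likelihood test and Benjamini-Hochberg adjustment over all genes tested, with a threshold of 0.05. Depots were compared in 1 fit of all 48, with no term for the replicate number. CPM are TMM-scaled. Levels per kb use the exon union of GENCODE M21 on GRCm38. Alternatives were RLE scaling, no filter, robust dispersion, DESeq2 1.42.0, the library set, a score of other tissue, and leaving out libraries. A library was doubted where a list of another tissue was over 10 times its depot median. List genes were named where called with a mean of at least 1 CPM, up to 4 a list by size of change; Dcn, Pparg, Sox10, Cxcl14, partners and relatives were named after their values were seen. The code was tested on simulated data. The members and lists were chosen with earlier results of these data known.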

Additional observations from a re-analysis of the deposited data

Results flagged for a closer look

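Of 120 groups of 4 libraries, 9 held a library far from the other 3, where chance gives about 1 in 20, or 6. Dpp4 read 69.4 CPM in SFAT Cth-/- CysF replicate 18 and 43.1 to 47.2 CPM in the other 3, and 65.3 CPM in EFAT Cth-/- CysF replicate 17 and 58.0 to 58.4 CPM in the others. Cd34 read 119.1 CPM in EFAT Cth-/- CTRL replicate 14 against 146 to 152 CPM, and 194.5 CPM in EFAT Cth+/+ CysF replicate 8 against 123 to 131 CPM. Pdgfrb read 60.2 CPM in EFAT Cth+/+ CysF replicate 11 against 97.3 to 103 CPM. Fap read 3.83 CPM in BAT Cth+/+ CysF replicate 8 against 2.75 to 2.82 CPM, and 18.5 CPM in EFAT Cth+/+ CTRL replicate 2 against 9.33 to 9.99 CPM. Ngfr read 0.474 CPM in BAT Cth-/- CysF replicate 18 against 0.157 to 0.200 CPM, and Icam1 read 16.7 CPM in EFAT Cth+/+ CTRL replicate 4 against 17.7 to 17.8 CPM.

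The diet effect differed between Cth-/- and Cth+/+ mice for 17 pairs of marker and depot, by edgeR's interaction test. In SFAT the log2 difference was -3.14 for Pi16, -2.76 for Thy1, -1.96 for Cd34, -1.95 for Dpp4, -1.60 for Ngfr, -1.52 for Fap, -1.40 for Ly6a, -1.11 for Pdgfra, -1.01 for Icam1 and -0.70 for Pdgfrb. In BAT it was -2.49 for Thy1, -2.31 for Pi16, -1.96 for Dpp4, -1.88 for Ngfr, -1.06 for Cd34 and -0.91 for Pdgfra, and in EFAT it was -1.07 for Pi16. Between depots of Cth-/- mice, the diet effect in EFAT exceeded that in BAT by 1.71 for Dpp4 and 1.62 for Thy1, and that in SFAT by 1.42 for Dpp4 and 1.92 for Thy1.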

How the results depend on the processing

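Of 82 called results of single markers, with 1425 alternatives, 1304 kept their call, 121 lost it and none changed sign, and of 128 uncalled results, with 2305 alternatives, 35 gained one. With the other-tissue score as a covariate, markers called numbered 3 (against 7) for genotype on CysF in BAT, 2 (6) for the interaction in BAT, and 6 (10) in SFAT for both. Set A alone gave 1 (0) and 3 (0) for genotype on CTRL in BAT and SFAT, 6 (10) for genotype on CysF in SFAT, and in EFAT 0 for diet in Cth-/- (4), genotype on CysF (3) and the interaction (1), each with a single Cth-/- CysF library. With the set as a term, EFAT gave 2 (4) for diet in Cth-/- and 0 (1) for the interaction, the difference in response EFAT minus SFAT gave 1 (2), and without doubted libraries diet in Cth-/- in EFAT gave 2 (4). DESeq2 gave 2 (1) for the EFAT interaction and 4 (2) for EFAT minus SFAT, which had 1 without a filter. The cause was not tested.

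Leaving out each library gave 2 to 4 calls for diet in Cth-/- in EFAT, 8 to 10 in SFAT and 7 in BAT, and 0 for diet in Cth+/+. It gave 3 to 4, 7 to 10 and 7 to 8 for genotype on CysF, 0, 0 and 0 to 1 for genotype on CTRL, and 1 to 2, 8 to 10 and 4 to 7 for the interaction, in the same order of depots. SFAT over BAT gave 9, EFAT over BAT 6 to 8 and EFAT over SFAT 4, and the differences in response gave 0 for SFAT minus BAT, 2 for EFAT minus BAT and 1 to 3 for EFAT minus SFAT.

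No paired analysis was possible within a depot because its groups share no replicate numbers. Between depots, same-numbered libraries correlated over 0.1 in 30 of 48 pairs, from -0.16 to 0.56 with a median of 0.20. Among the 4 libraries of the same group, 27 of the 48 correlated best with their own number, where chance gives about 1 in 4. The labels do not say whether equal numbers mark the same mouse, and the main fit between depots had no term for them. The fit with the replicate block called 7 (4) in EFAT over SFAT, 1 (0) in SFAT minus BAT and 5 (2) in EFAT minus SFAT. Ngfr in BAT, at 0.157 to 0.474 CPM in Cth-/- CysF libraries, rested on few reads. No library was doubted in BAT, so that setting was not run there.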
